A study of Homo sapiens with 45 samples.

Results

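EIF3L, a subunit of the translation initiation factor eIF3, was the target of 1 of 14 siRNA pools transfected into HCT116-VR cells, a vorinostat-resistant derivative of the HCT116 colorectal carcinoma line. RNAseq was done on 45 libraries, 3 for each siRNA and 3 for mock transfection. Cells received siRNA at 40 nM or transfection lipid alone (0 nM) and were harvested after 48 hours, and the labels name no vorinostat treatment. The 3 samples of each condition are described as independent biological experiments.

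The libraries examined here were selected on measured values. In the table of expression, neighbouring columns form 15 triplets, and the triplet with the 3 lowest EIF3L values, the triplet numbered 5 by its place, is called the EIF3L-low triplet. It holds 3 of the 45 libraries, which the sample list names siEIF3L replicate 1, siGLI1 replicate 1 and siJAK2 replicate 1. The reference triplet is the triplet numbered 8, named siDPPA5 replicate 1, siEIF3L replicate 3 and siGLI1 replicate 2 in that list. It is the place of mock if the triplets follow the alphabetical order of the conditions, which is an inference and not a label. Values of the 2 triplets are given below in these orders, and the other 39 libraries served as a second comparison. Recovered reads were 13893584, 13661008 and 11283812 in the EIF3L-low libraries and 14684828, 11551126 and 8884433 in the reference libraries, within the range of 7569592 to 21149597 over all libraries.

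The names in the sample list went against the targets of the siRNAs. For 11 of the 14 targets that are listed in the table, the lowest mean of a triplet was at the place of that target in alphabetical order in 11 of 11 cases (10 of 10 without EIF3L), whereas 1 library of the EIF3L-low triplet carries the EIF3L name. The margin to the next lowest triplet was small for BEGAIN (-1.19 against -1.10) and modest for NFYA (4.25 against 4.87). It was larger for the remaining targets. The library named siEIF3L replicate 3 held 7847 EIF3L reads. When the listed siEIF3L and mock names were followed instead, the EIF3L difference was -1.73 on the log2 scale and limma called 0 genes, with 717 genes at an unadjusted p under 0.05. No library was renamed, and each result below rests on the triplets and not on the listed conditions.

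Translation initiation factor eIF3 is a large complex that binds the small ribosomal subunit, helps to recruit mRNA and the initiator tRNA, and keeps the ribosomal subunits apart until the start codon is found. EIF3L lies at the edge of the complex beside EIF3K and EIF3E, outside the core of subunits shared with budding yeast. When initiation or amino acid supply is disturbed, cells commonly use the integrated stress response, in which ATF4 raises amino acid transporters, aminoacyl-tRNA synthetases and serine synthesis, while the unfolded protein response raises chaperones of the endoplasmic reticulum (ER).

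The gene EIF3L (ENSG00000100129, GRCh37 chr22:38244875-38285414, plus strand, 15 merged exons) had log2 CPM values (reads of a gene scaled to the size of the library) of 2.79, 2.85 and 3.37 in the EIF3L-low libraries, from 102, 106 and 123 reads. The reference libraries had 9.21, 9.38 and 9.19, from 8461, 7847 and 5174 reads. On the linear scale the EIF3L-low mean was 1.33% of the reference mean and 1.46% of the mean of the other 39 libraries. Since these values chose the triplet, they are a description without a test. The lowest of the remaining libraries, in the triplet numbered 10, was at 8.22, against 3.37 for the highest library inside the triplet, and the other 39 had a median of 9.11 and a maximum of 9.60. An exon of ANKRD54 on the opposite strand overlaps 460 of the 4296 exonic bases of EIF3L, and ANKRD54 was at 4.94 ± 0.05 (SD, n = 3) and 4.79 ± 0.10 (n = 3), a difference of 0.15 that did not pass the test (adjusted p = 0.223).

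**Figure D1:**
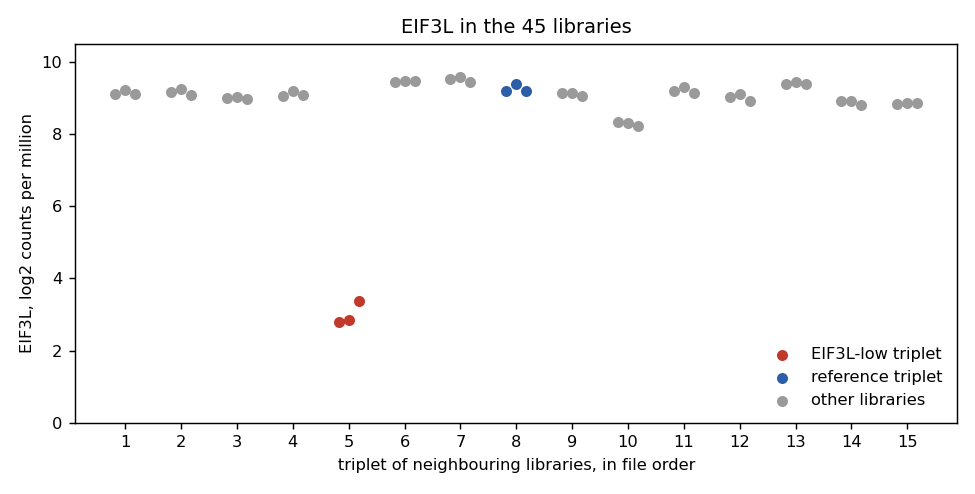
EIF3L in log2 CPM (vertical axis) in 45 libraries, set out by triplets of neighbouring libraries in file order (horizontal axis), each point a library. The 3 EIF3L-low libraries lie between 2.79 and 3.37 and all others at 8.22 or above.

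Copies of EIF3L in the genome were also low in the EIF3L-low triplet. The processed pseudogenes EIF3LP1 (GRCh37 chr14:82382575-82384232), EIF3LP2 (chr10:43062125-43062931) and EIF3LP3 (chr10:38368984-38369805) carry retrotransposed EIF3L sequence, and their transcripts were 90.5%, 96.0% and 94.9% identical to EIF3L over the aligned part. The same stretch of 60 bases is shown for the gene and for EIF3LP1, EIF3LP2 and EIF3LP3, which differ from EIF3L there at 7, 3 and 3 bases. It starts at base 1018 of the longest open reading frame of EIF3L, and capitals mark bases of a pseudogene that differ from EIF3L.
EIF3L: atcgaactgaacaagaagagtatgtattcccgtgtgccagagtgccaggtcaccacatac
EIF3LP1: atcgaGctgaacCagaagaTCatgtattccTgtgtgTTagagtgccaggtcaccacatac
EIF3LP2: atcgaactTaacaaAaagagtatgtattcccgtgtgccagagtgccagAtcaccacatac
EIF3LP3: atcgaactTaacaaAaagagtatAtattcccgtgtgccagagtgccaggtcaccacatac
EIF3LP1 had 5, 7 and 5 reads in the EIF3L-low libraries and 468, 426 and 291 in the reference libraries. EIF3LP2 had 4, 2 and 2 reads against 262, 203 and 143, and EIF3LP3 had 0, 0 and 1 against 63, 69 and 42. The triplets did not overlap for any of the 3 pseudogenes. Since EIF3L chose the triplet and its copies may hold its reads, this is a description and no separate support. Reads of the gene and of near-identical copies can be assigned to either, so these values are uncertain as measures of separate transcripts.

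The extent of the difference was asked next, for all genes other than EIF3L. Of 15694 genes tested against the reference triplet with limma, 179 (1.14%) were higher and 98 (0.624%) lower at a Benjamini-Hochberg adjusted p under 0.05 and a log2 difference of at least 1, which are the genes named as called. With the adjusted p alone, 1679 genes (10.7%) were higher and 2091 (13.3%) lower. Against the other 39 libraries, 576 genes (3.67%) were called higher and 135 (0.86%) lower, and 4272 (27.2%) and 3397 (21.6%) passed on the adjusted p alone. The median difference over all genes tested was 0.0067 against the reference triplet and 0.042 against the 39 libraries. The split depended on the scaling. After quantile normalisation, 140 genes were called higher and 162 lower than in the reference triplet, and 341 higher and 290 lower than in the 39 libraries. Leaving out the library named siGLI1 replicate 1 reduced the higher calls to 116.

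Higher and lower calls fell on genes of different level. Of the higher calls, 106 had a mean log2 value under 1 over the 2 triplets, 69 between 1 and 5, and 4 at 5 or above. The lower calls numbered 42, 27 and 29 in these bins, which held 2860, 6556 and 6278 genes tested. Lower calls thus made up most of the calls among well-expressed genes. The values of the 2 triplets did not overlap for 171 of the 179 higher calls and 92 of the 98 lower calls. The calls were chosen on these same values, so this separation is largely built in. Its share over all genes tested is not given here. In all 3 EIF3L-low libraries, 207 genes (1.32%) lay above and 181 (1.15%) below every one of the other 42 libraries.

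**Figure D2:**
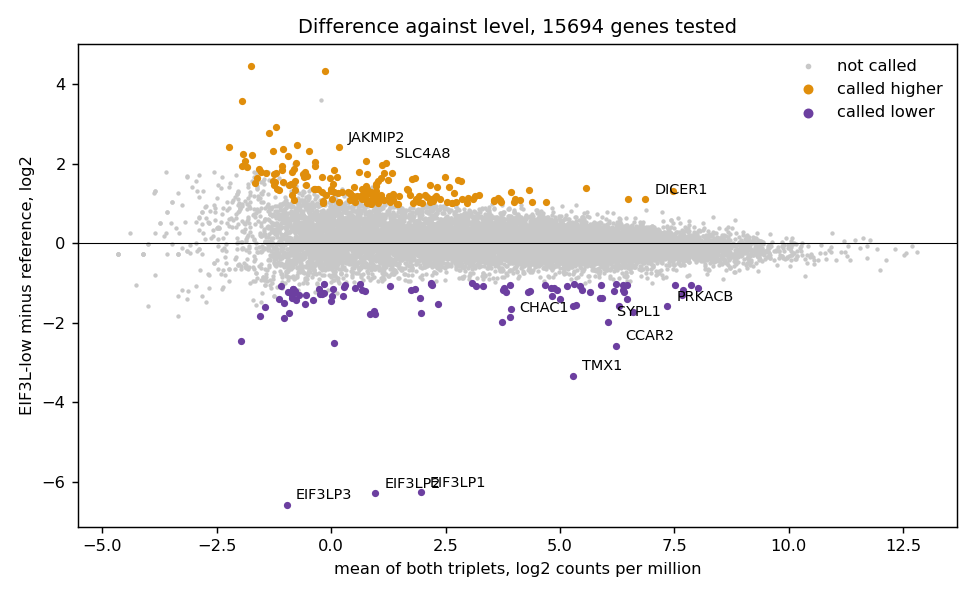
Log2 difference of the EIF3L-low minus the reference triplet (vertical axis) against the mean log2 CPM of both triplets (horizontal axis) for 15694 genes, each point a gene. The 3 EIF3L pseudogenes lie near -6, TMX1 at -3.33 is the lowest other gene, and most higher calls (179, orange) lie at low levels.

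The protein-coding genes that stood apart most were taken from those called in the same direction in both comparisons, with all 3 values outside the range of the other 42 libraries and a mean log2 value of at least 1 in the higher triplet. That left 20 higher and 20 lower genes, of which the 12 with the largest differences in each direction are described.

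TMX1, a thioredoxin-related oxidoreductase of the ER membrane (ENSG00000139921, GRCh37 chr14:51706880-51724373), was the lowest of them. Its log2 values were 3.78, 3.42 and 3.66 in the EIF3L-low libraries and 7.14, 6.83 and 6.86 in the reference libraries. The other 39 libraries lay between 6.34 and 7.56, so no library outside the triplet came near it. The difference was -3.33 ± 0.108 (SE, adjusted p = 2.12e-26), which left 9.95% of the reference level. CCAR2, a nuclear inhibitor of the deacetylase SIRT1, had 421, 412 and 428 reads against 2705, 1933 and 1710. Its difference was -2.57 ± 0.0837 (SE, adjusted p = 2.12e-26), and its 39 other values lay between 6.19 and 7.77 against 4.80 to 5.17 in the triplet.

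A pair of membrane proteins followed, TMEM208 of the ER at -1.98 and the vesicle protein SYPL1 at -1.97. SYPL1 (ENSG00000008282, GRCh37 chr7:105730951-105753035) had values of 5.13, 4.96 and 5.06 against 7.06, 7.04 and 6.98. The libraries within each triplet differed by at most 0.17 for SYPL1, and the gap between the triplets was far larger (adjusted p = 2.27e-26). ELL2, an elongation factor of RNA polymerase II, fell by 1.65 on the log2 scale, and PRKACB, a catalytic subunit of protein kinase A, fell by 1.58. LRRC58 differed by -1.73 from the reference triplet.

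The remaining lower genes of this set were of mixed function. LIMA1, which binds and bundles actin, was at -1.57 against the reference triplet and at -2.11 against the 39 libraries. LIN7C, a scaffold of epithelial polarity, was at -1.56, FNDC3B at -1.56, and PWP2, a factor of small ribosomal subunit assembly, at -1.40. SMC5, of the SMC5/6 complex that acts in DNA repair, was at -1.38. The adjusted p-values of the 12 against the reference triplet were between 2.12e-26 and 1.09e-15, and their place outside the other libraries was set by how they were chosen.

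The higher genes of this set had smaller differences from fewer reads. JAKMIP2, a microtubule-associated protein (ENSG00000176049, GRCh37 chr5:146965001-147162338), had 39, 47 and 24 reads in the EIF3L-low libraries and 6, 10 and 2 in the reference libraries. Its difference of 2.42 ± 0.546 (SE, adjusted p = 7.97e-04) was the largest of the 12. SLC4A8, a sodium-driven bicarbonate exchanger (ENSG00000050438, GRCh37 chr12:51785101-51909547), had 69, 74 and 49 reads against 11, 18 and 10. The triplets did not overlap for either gene, and SLC4A8 was 4.04-fold higher (difference 2.01 ± 0.307, adjusted p = 2.58e-06).

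The other 10, with log2 differences in parentheses unless a fold is named, ranged from 1.12 to 1.78. They were the ubiquitin ligase RNF165 (1.78), VAT1L (1.61), the zinc finger co-activator ZCCHC12 (1.57), the forkhead transcription factor FOXQ1 (2.83-fold), the Rac GTPase-activating protein CHN1 (1.42), the collagen cross-linking enzyme LOXL1 (1.26), the actin-binding protein POF1B (1.22), ECHDC2 (1.20), the recombinase RAG1 (1.19) and the membrane protein PROM2 (1.12). CHN1, the gene of these with the smallest adjusted p, had 146, 145 and 112 reads against 57, 38 and 32 (adjusted p = 1.65e-05), and the adjusted p of the other 9 lay between 8.52e-05 and 0.0203. PROM2 differed more from the 39 libraries (2.56) than from the reference triplet, since the reference triplet was itself 1.44 above those libraries. Some of these calls were lost on leaving out a single library. Without siGLI1 replicate 1, VAT1L (difference 1.51, adjusted p = 0.0523), ZCCHC12 (1.52, 0.0619), POF1B (1.22, 0.0513) and PROM2 (0.98, 0.0256) were not called. ZCCHC12 was also not called without siDPPA5 replicate 1 (adjusted p = 0.109) or siGLI1 replicate 2 (0.0636), POF1B without siEIF3L replicate 1 (0.0729) or siDPPA5 replicate 1 (0.126), and RAG1 without siGLI1 replicate 2 (0.0545).

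**Figure D3:**
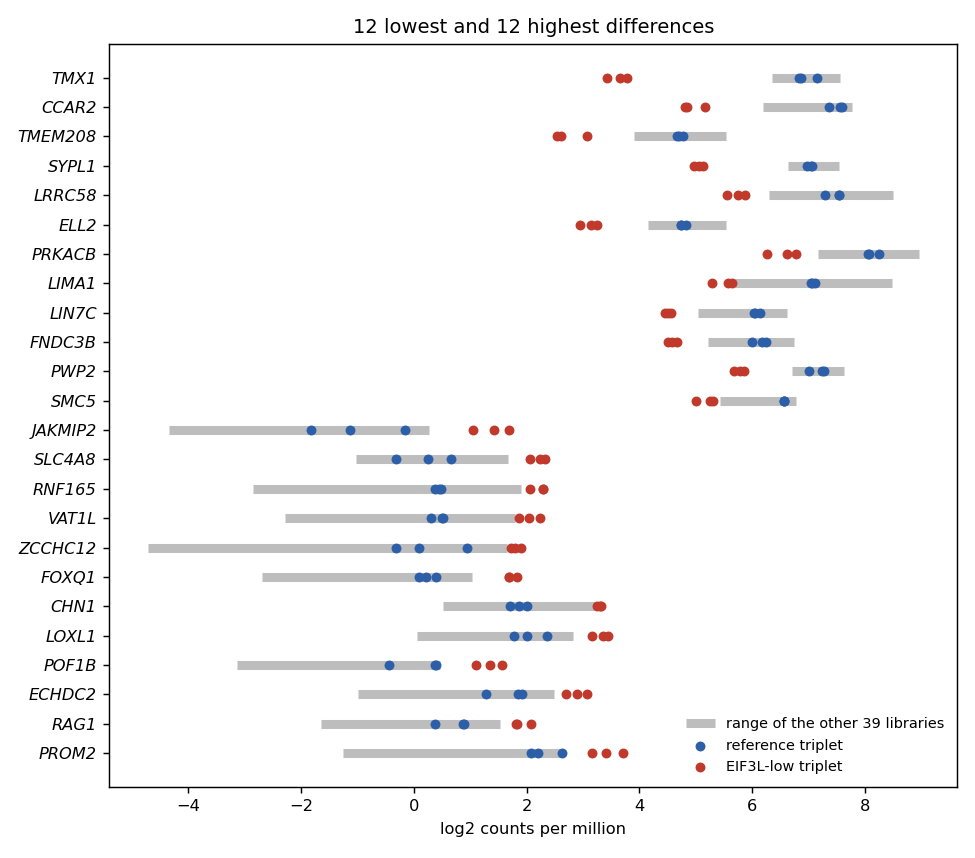
Log2 CPM (horizontal axis) of the 12 lower and 12 higher genes (vertical axis), with red points for the 3 EIF3L-low libraries, blue points for the 3 reference libraries and grey bars from the lowest to the highest of the other 39. No red point lies within a grey bar or among the blue points of its gene, as the choice of these genes required.

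Only 4 of the higher calls were on genes with a mean log2 value of 5 or above, and these were looked up after their values had been seen. SNHG7, a long non-coding host RNA of snoRNAs, had 1098, 1123 and 975 reads against 425, 346 and 259, a difference of 1.39 ± 0.0953 (SE, adjusted p = 4.56e-15). HMGA2, an architectural chromatin protein, was at 8.14 ± 0.12 (SD, n = 3) against 6.81 ± 0.01 (n = 3), a difference of 1.32. The tubulin TUBA1A differed by 1.12. DICER1, the nuclease that makes small RNAs from hairpins, had 2551, 2471 and 2056 reads against 1183, 801 and 782. DICER1 and SNHG7 lay above all 42 other libraries, whereas HMGA2 and TUBA1A did not.

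Processed pseudogenes made up 34 of the 98 lower calls (34.7%), against 3 of the 179 higher calls and 13.2% of all genes tested. Each of the 34 was aligned to protein-coding transcripts. The closest coding gene had a lower value in 33 of 34 cases and passed as lower on the adjusted p in 26, not counting EIF3L. Over all genes tested, 13.3% passed as lower. The 34 were chosen as lower calls, 3 of them are the EIF3L copies, and several had the same closest gene, so they are not separate cases. The median identity of the best alignment was 93.0%. The closest gene of the pseudogene ENSG00000236015 was TMX1 (91.5% identity). This pseudogene had 8, 7 and 3 reads against 43, 23 and 22. ELL2P1 (-1.78) lay beside ELL2, RNF138P1 (-1.53) beside the ubiquitin ligase RNF138 (-1.37), and RHOQP1 and RHOQP2 beside the GTPase RHOQ (-1.22). The pseudogenes FCF1P1, FCF1P3, FCF1P7 and FCF1P8 of FCF1, a factor of ribosomal RNA processing, were called, while FCF1 itself did not reach a difference of 1. For 6 pseudogenes the closest gene was a ribosomal protein gene. Pseudogenes with such identity can share reads with their gene and are uncertain as separate measurements. Sharing of reads was not tested.

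Within eIF3, 12 of 13 other subunits matched by symbol were measured, and none was called at a log2 difference of 1. On the adjusted p alone, 7 were lower and 0 higher (13.3% and 10.7% over all genes tested), with a median of -0.21 against 0.0067 over all genes tested. EIF3K, the neighbour of EIF3L in the complex, had 7.06, 6.97 and 6.99 in the EIF3L-low libraries and 7.46, 7.44 and 7.43 in the reference libraries. The triplets did not overlap, and the difference was -0.44 ± 0.0575 (SE, adjusted p = 1.65e-07).

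EIF3G, an RNA-binding subunit, followed at -0.39, EIF3I at -0.28 and EIF3H at -0.23. EIF3A, the scaffold of the complex, was at -0.23, EIF3E at -0.19 and EIF3D, which can bind the mRNA cap, at -0.16. The values of EIF3C (-0.30), EIF3F (-0.16), EIF3B (-0.15), EIF3M (-0.10) and EIF3J (-0.03) did not pass. EIF3C had only 75 to 126 reads in the 6 libraries and has the near-identical copy EIF3CL, so its value is uncertain. Against the 39 libraries 7 subunits were lower (21.6% over all genes tested), with a median of -0.16, but they were not the same 7. EIF3A, EIF3D and EIF3E did not pass there, whereas EIF3B, EIF3F and EIF3M did. After quantile normalisation 3 of the 12 were lower against the reference triplet, with a median of -0.07, and EIF3B, EIF3J and EIF3M turned to values just above 0.

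Among 30 other initiation factors, 11 were lower and 3 higher (36.7% and 10.0%, against 13.3% and 10.7% of all genes tested), with a median of -0.12. The lower count was 6 without siDPPA5 replicate 1, and quantile normalisation gave 6 lower and 7 higher. The 39 libraries gave 13 lower and 5 higher (21.6% and 27.2% of all genes), with a median of -0.05. The lowest was EIF4EBP2 (-0.59 ± 0.0832, adjusted p = 7.53e-07), a protein that holds the cap-binding factor EIF4E back, and EIF2S2, the beta subunit of eIF2, was at -0.55. EIF4G3, a scaffold of the cap-binding complex, rose by 0.53, EIF1B by 0.44 and EIF1, which acts in start codon selection, by 0.24.

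Targets of ATF4 and the integrated stress response were lower as a group. Of 28 measured genes of 30 listed, 24 were lower and 1 higher on the adjusted p alone, against backgrounds of 13.3% and 10.7%, and 7 were called lower. The median difference was -0.63, against 0.0067 over all genes. In 25 of the 28 all 3 EIF3L-low values lay below all 3 reference values, and the share of all genes with this separation is not given here. Leaving out any of the 6 libraries gave 22 to 24 lower genes and medians from -0.66 to -0.60.

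CHAC1, which degrades glutathione and is a well-known ATF4 target (ENSG00000128965, GRCh37 chr15:41245160-41248710), had 105, 125 and 97 reads against 357, 396 and 247. Its difference was -1.86 ± 0.223 (SE, adjusted p = 2.22e-08), or 27.6% of the reference level. The cystine transporter SLC7A11 had values of 5.89, 5.83 and 5.67 against 7.02, 7.02 and 6.97, a difference of -1.21. JDP2, a transcription factor of the AP-1 type, and the secreted glycoprotein STC2 were both at -1.16. The serine synthesis enzyme PSAT1 (-1.13), asparagine synthetase ASNS (-1.05) and the mTORC1 inhibitor DDIT4 (-1.04) completed the called genes. DDIT4 stayed under the difference of 1 without siGLI1 replicate 1 (-0.95) or siGLI1 replicate 2 (-0.93) and after quantile normalisation (-0.96).

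The transcript of ATF4 itself, a factor controlled mainly by translation, was at -0.35 ± 0.075 (SE), DDIT3 (CHOP) at -0.81, ATF3 at -0.86 and TRIB3 at -0.65. PPP1R15A, the phosphatase subunit that reverses eIF2 phosphorylation, was the gene that rose, by 0.52. Values of NUPR1 (-0.91), SLC7A1 (-0.12) and CEBPB (0.01) did not pass.

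The size depended on the libraries compared with. Against the 39 libraries 17 of the 28 were lower and 3 higher, with a median of -0.33, beside backgrounds of 21.6% and 27.2%. The reference triplet itself had a median 0.28 above those libraries. DDIT4 showed this most, at -0.14 against the 39 libraries (adjusted p = 0.273), where the reference triplet was 0.90 above them. The mean over the 28 genes was 6.21 to 6.29 in the EIF3L-low libraries, 6.83 to 7.00 in the reference libraries and 6.04 to 7.47 in the others. By this mean the EIF3L-low triplet ranked 3 and the reference triplet 12 of 15 from the lowest. Only STC2 and ATF3 lay below all 42 other libraries.

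Since these genes moved together, the 250 bases upstream of their RefSeq starts (GRCh38.p14) were searched on both strands for TGATGNAA, the core of the element that ATF4 binds with C/EBP partners. It was found for 7 of 23 matched members, CHAC1, JDP2, ASNS, ATF3, AARS1, GARS1 and CEBPG, against 3.89% of 27305 symbols. The 120-base windows of the 3 with the lowest differences are shown with the match in capitals, CHAC1 at chr15:40953221-40953340 and JDP2 at chr14:75427902-75428021 on the plus strand and ASNS at chr7:97872409-97872528 on the minus strand.
CHAC1: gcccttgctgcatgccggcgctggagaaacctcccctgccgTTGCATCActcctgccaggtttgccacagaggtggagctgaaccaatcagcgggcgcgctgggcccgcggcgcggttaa
JDP2: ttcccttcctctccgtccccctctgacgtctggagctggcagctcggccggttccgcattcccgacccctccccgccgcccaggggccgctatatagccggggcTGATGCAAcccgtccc
ASNS: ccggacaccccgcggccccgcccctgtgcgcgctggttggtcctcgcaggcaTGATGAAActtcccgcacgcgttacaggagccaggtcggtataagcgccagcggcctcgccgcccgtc
In CHAC1 the match is on the opposite strand, 201 bases before the start, whereas it lies 8 bases before the start in JDP2 and 60 in ASNS. A match describes these letters only and is not evidence of binding. The list was made up of targets of this response, so the share with a match describes the list and not the EIF3L-low triplet.

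Chaperones of the ER and other targets of the unfolded protein response were also lower. Of 17 genes, 14 were lower and 0 higher on the adjusted p alone, beside 13.3% and 10.7% of all genes, with a median of -0.36, and none was called. Here the other 39 libraries gave a similar value, with 16 lower and 0 higher genes (21.6% and 27.2% of all genes) and a median of -0.38, and the reference triplet was at -0.02 from them. The mean over the 17 genes was 6.91, 6.81 and 6.95 in the EIF3L-low libraries, against 7.22 to 7.30 in the reference libraries and 6.93 to 7.52 in the others. By triplet the EIF3L-low mean ranked 1 of 15 from the lowest.

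DNAJC3, a co-chaperone that also inhibits the eIF2 kinase PERK, was the lowest at -0.60 ± 0.0999 (SE, adjusted p = 1.26e-05). Its values of 4.92, 4.83 and 5.07 did not overlap with 5.56, 5.46 and 5.61. HERPUD1, of ER-associated degradation, was at -0.55, as was HSPA5 (BiP), the main ER chaperone, at 9.46 ± 0.10 (SD, n = 3) against 10.01 ± 0.10 (n = 3). PDIA4 (-0.49), HYOU1 (-0.44) and MANF (-0.43) followed, and XBP1, whose mRNA is spliced by IRE1, was at -0.24. SDF2L1, DNAJB9 and EDEM1 did not pass, at -0.32, -0.21 and 0.06. HSPA5 and PDIA6 lay below all 42 other libraries.

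The ER stress element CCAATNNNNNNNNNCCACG, bound by NF-Y and ATF6, was searched in the same way. It was found upstream of 7 of 17 matched members, HSPA5, CANX, CRELD2, PDIA6, HSP90B1, CALR and XBP1, against 0.0916% of 27305 symbols. The windows of the 3 with the lowest differences are shown with the element in capitals, HSPA5 at chr9:125241344-125241463 on the minus strand and CANX at chr5:179698728-179698847 and CRELD2 at chr22:49918504-49918623 on the plus strand (GRCh38.p14).
HSPA5: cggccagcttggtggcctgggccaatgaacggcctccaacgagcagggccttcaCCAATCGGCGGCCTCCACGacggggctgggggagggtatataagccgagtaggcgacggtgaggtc
CANX: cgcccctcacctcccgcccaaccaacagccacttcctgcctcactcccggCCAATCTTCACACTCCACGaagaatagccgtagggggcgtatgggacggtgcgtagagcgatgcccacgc
CRELD2: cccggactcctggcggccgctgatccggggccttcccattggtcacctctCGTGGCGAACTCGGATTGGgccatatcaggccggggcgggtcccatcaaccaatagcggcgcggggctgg
The element is on the opposite strand in CRELD2. CANX was at -0.39 and CRELD2 at -0.36 on the log2 scale. The 7 genes with the element ranged from -0.55 to -0.24, and all 17 genes of the list from -0.60 to 0.06. The list was made up of targets of this response, so the share with the element describes the list and not the EIF3L-low triplet. Binding was not tested.

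Transcripts of cytosolic ribosomal proteins were lower in nearly the whole list. For the small subunit, 28 of 31 genes were lower and 0 higher (against 13.3% and 10.7% of all genes), with a median of -0.37, and for the large subunit 39 of 44 were lower and 0 higher, with a median of -0.36. The differences of the small subunit spanned -0.72 to -0.16, and no gene of either list was called at 1. RPS20 had log2 values of 8.44, 8.45 and 8.50 against 9.13, 9.23 and 9.18. It was the lowest of the small subunit (-0.72 ± 0.0637, adjusted p = 9.54e-12), followed by RPS27 at -0.66 and RPS16 at -0.62.

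All 3 EIF3L-low values lay below the reference values for 29 of the 31 and 40 of the 44 genes. The share of all genes with this separation is not given here. Against the 39 libraries, 27 and 38 genes were lower (21.6% of all genes tested), with medians of -0.30 and -0.23. In these lists 9 and 3 genes lay below all 42 other libraries (1.15% of all genes tested). The mean of the small subunit genes was 7.41 to 7.42 in the EIF3L-low libraries against 7.76 to 7.86 in the reference libraries, and the triplet ranked 2 of 15 from the lowest. Only the triplet numbered 10 had a lower mean for the small subunit genes. Ribosomal protein genes have many processed pseudogenes, so part of their reads may have been assigned elsewhere.

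The median difference fell with the level of genes and rose with their length. Among coding genes with a mean log2 value of 5 or above, the median difference was -0.13 for genes with under 2000 exonic bases and -0.01 for those with 5000 or more. With values under 1 the medians were 0.20 and 0.42. Among the 356 short genes at the high level, 33.1% were lower on the adjusted p alone. The part of level and length in the ribosomal protein values was not tested. After quantile normalisation 22 of 31 and 29 of 44 genes were lower, with medians of -0.25 and -0.22.

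**Figure D4:**
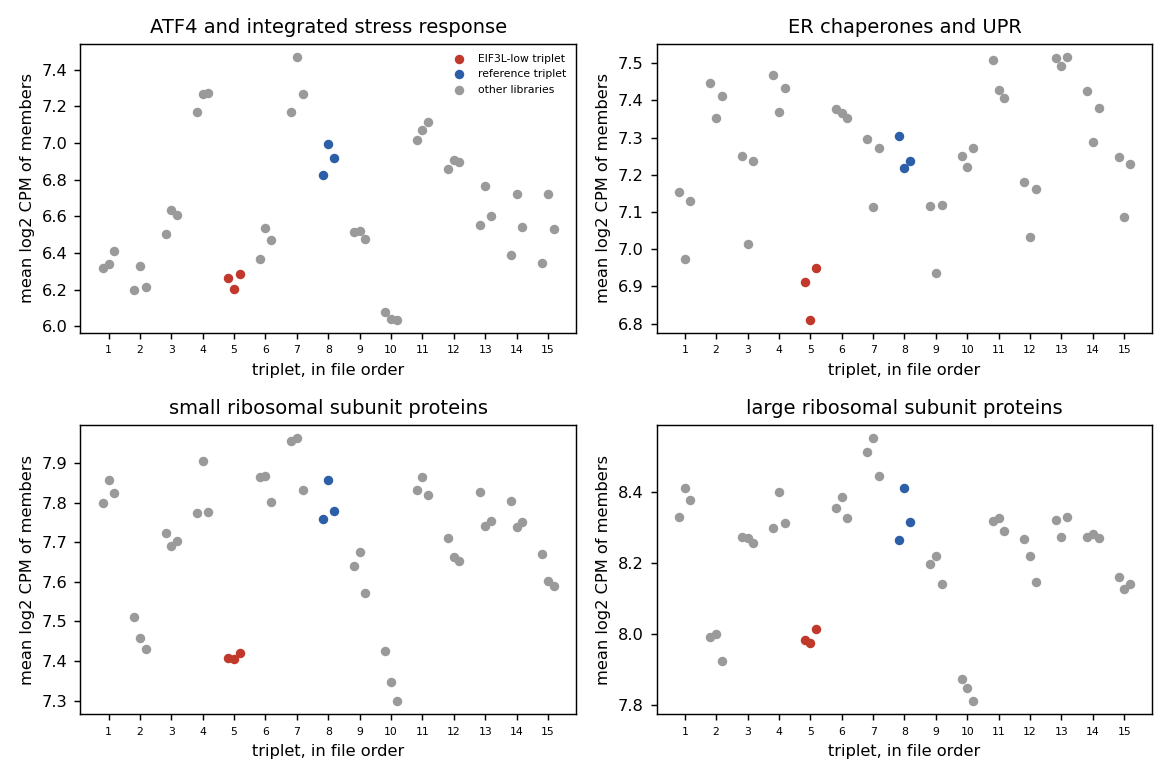
Mean log2 CPM over the members of 4 gene lists (vertical axes) in 45 libraries by triplet in file order (horizontal axes), each point a library. The EIF3L-low libraries (red) lie below the reference libraries (blue) in each panel, and have the lowest triplet mean of 15 for ER chaperones, while the triplet numbered 10 lies lower in the other 3 panels.

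The RNA interference machinery is the route through which a transfected siRNA acts. Of 13 genes, 6 were higher and 0 lower (46.2% higher, against 10.7% of all genes), with a median of 0.22. In the comparison with the 39 libraries 7 were higher and 1 lower, beside 27.2% and 21.6% of all genes. DICER1 was the member called, with 7.43, 7.38 and 7.43 in the EIF3L-low libraries against 6.37, 6.09 and 6.46 (difference 1.11 ± 0.0962, adjusted p = 4.99e-12). Its values exceeded all 39 other libraries, which reached 7.34, but its difference from those libraries was 0.65, under the threshold of 1. Without the library named siEIF3L replicate 3 the difference was 0.999, just under the threshold. TNRC6C, a silencing scaffold, rose by 0.51, and the Argonaute genes AGO3, AGO1 and AGO2 by 0.44, 0.30 and 0.25. DROSHA, which cuts primary microRNAs in the nucleus, rose by 0.25. Without siEIF3L replicate 3 the counts were 3 higher and 1 lower, and without each of the other 5 libraries 4 to 6 higher and 0 lower.

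Genes of DNA replication and the G1/S transition were lower for 10 of 23 and higher for 2 (43.5% and 8.70%, against 13.3% and 10.7% of all genes), with a median of -0.18. The lower count was 6 and the median -0.08 without siGLI1 replicate 1, and the median was -0.27 without siEIF3L replicate 3. When the 39 libraries were the comparison, 9 were lower and 6 higher (21.6% and 27.2% of all genes), with a median of -0.09. MCM4 of the replicative helicase was the lowest at -0.90 ± 0.095 (SE, adjusted p = 1.07e-09), with 8.25, 7.93 and 8.17 against 9.12, 8.87 and 9.07. Values of MCM4 lay below all 42 other libraries. The licensing factor CDT1 fell by 0.53, and cyclin CCNE2 rose by 0.50. For G2/M and mitosis 7 of 22 were lower and 0 higher (31.8% lower), the lowest being the cyclin CCNA2 (-0.37). The lower count was 3 without siGLI1 replicate 1 and 4 without siEIF3L replicate 3 or siJAK2 replicate 1. With the 39 libraries the counts were 4 lower and 8 higher, shares near the 21.6% and 27.2% of all genes.

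The next lists are read beside shares of 13.3% lower and 10.7% higher over all genes against the reference triplet. Against the 39 libraries these shares were 21.6% lower and 27.2% higher. In the hypoxia and glycolysis list 8 of 18 were lower and 2 higher (median -0.34). Its called member was ADM, encoding the peptide adrenomedullin, at 4.39, 3.90 and 4.48 against 5.41, 5.06 and 5.63 (-1.11 ± 0.121, adjusted p = 2.43e-09), which became -0.93 without siGLI1 replicate 1 and -0.98 without siGLI1 replicate 2. In the NRF2 list 4 of 15 were lower and 0 higher (median -0.16), with SLC7A11 called and the thioredoxin reductase TXNRD1 at -0.70. Of 24 p53 targets, 5 were higher and 2 lower (median 0.09), with SESN1, a regulator of mTORC1, at 0.53 and CDKN1A (p21) at 0.42. Against the 39 libraries 2 were higher and 12 lower, and the reference triplet was itself at -0.24 from those libraries by median. The mTORC1 list had 4 of 24 lower and 2 higher (16.7% and 8.33%, near the shares of all genes, median -0.09), with DDIT4 called and the RAG GTPase gene RRAGB at 0.68.

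Interferon-stimulated genes were 16 of 29 listed by symbol, of which 3 were higher and 2 lower (median 0.23). OASL, the called gene, had 32, 51 and 25 reads against 13, 16 and 6 (1.36 ± 0.466, adjusted p = 0.0279). This call was lost without siGLI1 replicate 1 (adjusted p = 0.137), siDPPA5 replicate 1 (0.071) or siGLI1 replicate 2 (0.127). IFIT1 rose by 0.90 and OAS3 by 0.52, while ISG15 fell by 0.44. Leaving out each library moved the higher count from 1 to 6. The NF-kappaB list had 4 of 11 lower and 0 higher (median -0.02). Against the 39 libraries 2 were lower and 3 higher (median 0.21), near the 21.6% and 27.2% of all genes. The value with the largest size, IL11 at 0.91, did not pass (adjusted p = 0.215). The AP-1 list had 3 of 23 lower and 2 higher (near the shares of all genes, median -0.13), and EGR3 at 0.92 did not pass.

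The line is resistant to vorinostat, an inhibitor of histone deacetylases. Of 17 histone deacetylase genes 1 was higher and 1 lower (median -0.01), the former HDAC4 at 0.76 ± 0.195 (SE, adjusted p = 0.00302). Of 16 genes of the BCL2 family 3 were higher and 1 lower (median 0.15). BAK1, a pore-forming effector of apoptosis, was at 0.73, PMAIP1 (NOXA) at 0.63 and BCL2 at 0.49, whereas MCL1 fell by 0.30, and the largest value, BMF at 0.80, did not pass (1.10, adjusted p = 0.0298, without siEIF3L replicate 3). Against the 39 libraries BAK1 was at 0.09 and PMAIP1 at -0.11. Of 24 genes of cholesterol and fatty acid synthesis 4 were lower and 2 higher (16.7% and 8.33%, near the shares of all genes, median -0.11). CYP51A1 was at -0.37 against the reference triplet and at 0.05 against the 39 libraries. The lower count was 2 without siDPPA5 replicate 1 or siEIF3L replicate 1. Against the 39 libraries 7 were lower and 6 higher (21.6% and 27.2% of all genes). Of 14 Wnt targets 2 were higher and 1 lower (median 0.17), with the feedback inhibitor AXIN2 at 0.77 ± 0.14 (SE, adjusted p = 5.19e-05).

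**Figure D5:**
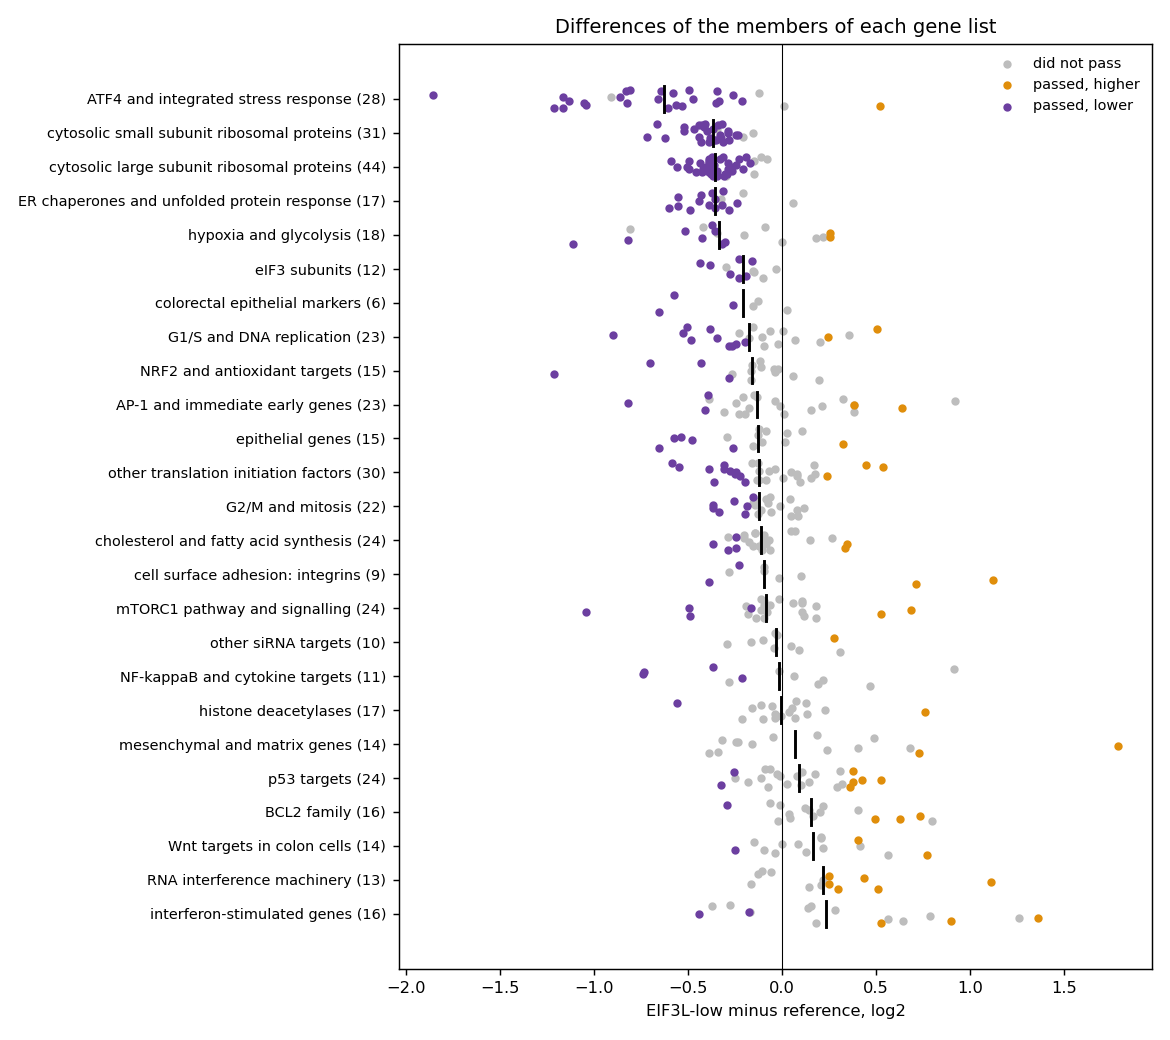
Log2 differences of the EIF3L-low minus the reference triplet (horizontal axis) for the members of 25 gene lists (vertical axis, members measured in parentheses), each point a gene, with black bars at the medians and colours for genes that passed on the adjusted p. The ATF4 list has the lowest median (-0.63), all genes of both ribosomal protein lists and of the eIF3 list lie below 0, and the remaining lists spread on both sides.

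Keratins and EPCAM, markers of epithelium, were at high levels, while some markers of colorectal epithelium were not listed. Of 8 markers of colorectal epithelium 6 were listed, and the keratins KRT8, KRT18 and KRT19 and the adhesion protein EPCAM were between 8.57 and 10.74 in the 6 libraries, while CEACAM5 and VIL1 were not among the genes listed. CDH1 (E-cadherin) fell by 0.66, KRT18 by 0.57 and KRT8 by 0.26, and EPCAM (-0.13), CLDN7 (-0.16) and KRT19 (0.03) did not pass. In the wider epithelial list 5 of 15 were lower and 1 higher (median -0.13). KRT20, CDX1 and CEACAM6 of its 20 genes were also not listed. Against the 39 libraries 5 were lower and 5 higher (21.6% and 27.2% of all genes, median 0.07). By the mean of this list the reference triplet ranked 15 of 15 from the lowest and the EIF3L-low triplet 11. CDH1 was at -0.41, KRT18 at -0.19, KRT8 at 0.06 and CLDN7 at 0.21 from the 39 libraries. Of 9 integrins 2 were higher and 2 lower (median -0.10), with ITGB8 called at 1.12. ITGB8 had 197, 168 and 158 reads against 84, 70 and 49 and lay above all 42 other libraries.

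Of 14 mesenchymal and matrix genes 2 were higher and 0 lower (median 0.07). Against the 39 libraries 3 were higher and 4 lower (27.2% and 21.6% of all genes, median -0.17). The reference triplet was itself at -0.37 from those libraries by median. The called member was the matrix protease MMP7, with 58, 45 and 22 reads against 14, 5 and 10 (1.79 ± 0.453, adjusted p = 0.00275). Of 16 markers of fibroblasts, blood and endothelial cells 2 were listed, and their mean was 2.36 to 2.98 in the EIF3L-low libraries and 2.07 to 2.75 in the reference libraries. COL1A1 rose by 0.73 (adjusted p = 0.0242), but did not pass without siGLI1 replicate 1 (adjusted p = 0.194), siDPPA5 replicate 1 (0.175) or siGLI1 replicate 2 (0.0839), with a block for the listed replicate number (0.0662) or against the 39 libraries (difference 0.32, adjusted p = 0.143). CD68 was at -0.40 (adjusted p = 0.328), and no other defining marker of these cells was among the genes listed. Where 5 or fewer genes of a list passed in a direction, leaving out 1 library moved that count by at most 3 genes, the most for interferon-stimulated genes. Of the other 10 measured siRNA targets POLR2D was the member that passed, at 0.27 (adjusted p = 0.018).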

How the data were processed

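RNAseq libraries (TruSeq RNA v2) of HCT116-VR cells were sequenced by the authors. Per the labels and methods, reads were processed with CASAVA 1.8.2, aligned to GRCh37 with TopHat 1.4.1, counted per gene of Ensembl release 67 with HTSeq and normalised with limma voom. The authors deposited log2 values (log2 CPM after adding 0.5 reads, with scaled library sizes) for 15698 genes. Whether the counting used strand is not given in the sources used here.

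Whole reads were recovered from the step that 1 read adds, with the minimum of a library set to 0 reads (100% of values within 0.001 of a whole number). A count of 0 allows up to 3 reads, and this covers counting error only. Columns were matched to names by the sample list of the study (0 unmatched). The deposited log2 values of 15 triplets of neighbouring columns were fitted in limma 3.58.1 (R 4.3.3; lmFit, then eBayes with a trend). The 15695 genes kept had 3 or more libraries at a log2 value of -1 or higher, and the fit left 30 residual degrees of freedom. EIF3L was then left out and p-values were adjusted by Benjamini-Hochberg over 15694 genes. Genes were called at an adjusted p under 0.05 and a log2 difference of at least 1. The p-values set a difference between triplet means against the spread within all 15 triplets. Since EIF3L chose the triplet, they describe these libraries only. On simulated data of this comparison (15640 genes), 100% of 200 changed genes were recovered and 2 unchanged genes were called. The planted changes all exceeded the log2 threshold of 1 and were placed only in genes above a minimum read count. All genes had the same simulated dispersion, without replicate effects. The simulation therefore does not show how calls near the threshold or at low levels perform.

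The triplets, gene lists and tests were chosen with earlier results of these data known, and the lists are no independent support. Named genes were EIF3L, the 12 highest and 12 lowest differences under the conditions given in the text, all eIF3 subunits, up to 4 called members of each of 26 lists or otherwise the member with the largest difference, the other siRNA targets and cell markers. Some genes of these lists are not reported here by name. Symbols and coordinates are from GENCODE release 44 on GRCh37 (15366 of 15698 genes had a symbol), and promoters from RefSeq (GRCh38.p14). Pseudogene transcripts were aligned with blastn 2.17.0, taking the best hit. Plots used Python 3.11.15 and matplotlib 3.10.9. Alternatives were the 6 libraries alone, other filters, scalings, added reads, weights, thresholds and replicate blocks, the listed names, and leaving out each library. List counts were also computed under each of these, a choice made after the data were seen.

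Replicate numbers were checked for pairing by the correlation of deviations from the triplet means. The median was -0.01 for pairs of libraries with the same listed number and 0.09 for pairs at the same place in the triplet (lowest -0.02), against -0.04 for different places. Not every pair exceeded 0.1, and the main fit used no block for number or place. By these medians, libraries at the same place were more alike than those at different places, which the main fit ignores. With a block for place, genes at an unadjusted limma p under 0.05 against the reference triplet rose from 5456 to 6466.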

Additional observations from a re-analysis of the deposited data

How the results depend on the processing

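Against the reference triplet, 179 higher and 98 lower calls became 532 and 386 with a minimum fold of 1.5 and 1679 and 2091 with the adjusted p alone. Quantile normalisation gave 162 lower calls. Against the 39 libraries, 576 and 135 calls became 341 and 290 after quantile normalisation, 1503 and 498 with a minimum fold of 1.5, and 4272 and 3397 with the adjusted p alone. Leaving out each library gave 116 to 216 higher and 83 to 103 lower calls against the reference triplet, the lowest without the library named siGLI1 replicate 1 (116), and 444 to 577 and 130 to 135 against the 39 libraries. With a replicate block for the listed number the calls were 176 and 92 (553 and 127 against the 39 libraries), and with a replicate block for the place in the triplet 207 and 102 (580 and 136). The place block raised the lower counts on the adjusted p from 0 to 4 for mesenchymal genes, from 3 to 8 for AP-1, from 4 to 9 for cholesterol synthesis and from 4 to 7 for NRF2 targets, and gave 8 higher and 1 lower genes of RNA interference. The remaining settings (6 libraries alone, other filters, median centring, 2 reads added, voom weights, no trend) moved these counts by less than 1.5 times.

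Over 82 named genes, 1276 of 1310 values kept direction and side of the threshold under settings other than the listed names, 18 fell below it, 1 passed it and 15 changed sign. The sign changes were EIF3J (0.0215), EIF3B (0.0099), EIF3M (0.0308), PSMD13 (0.0788), EPCAM (0.0363) and KRT8 (0.0786) after quantile normalisation, KRT19 (-1.77e-05) after centring, GLI1 with voom weights (0.00807) and the listed replicate block (0.0204), and, on leaving out 1 library, EIF3J (range -0.0978 to 0.0314), GLI1 (-0.23 to 0.28) and KRT19 (-0.0287 to 0.0856). On the deposited scale KRT8 had passed as lower on the adjusted p alone.

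With the listed names followed, limma called 0 genes in either direction (lowest adjusted p 0.945), EIF3L was at -1.73 and 25 named genes changed sign. These were LRRC58 (0.21), CHN1 (-0.22), ECHDC2 (-0.13), EIF3K (0.0325), EIF3D (0.27), EIF3E (0.22), EIF3A (0.25), EIF3G (0.10), EIF3M (0.0557), EIF3F (0.13), EIF3C (0.39), CHAC1 (0.0706), SESN1 (-0.18), CCNA2 (0.25), IL11 (-1.02), CYP51A1 (0.28), BMF (-0.50), DDIT4 (0.85), DICER1 (-0.36), GLI1 (0.0128), SAP130 (0.19), CDK10 (0.23), KRT18 (0.20), KRT8 (0.0834) and CLDN7 (0.46). Libraries of several triplets share each listed name. Depth limits genes near the log2 value of 0 reads, which was -4.89 to -4.58 in the EIF3L-low libraries.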
